A study of Mus musculus with 40 samples.

Results

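Glucocorticoid-induced genes were followed in ribosome-bound RNA of mouse hypothalamic astrocytes and in the RNA left behind. The set held 8 genes taken by symbol, Fkbp5, Sgk1, Tsc22d3, Zbtb16, Klf9, Ddit4, Errfi1 and Cdkn1a, of the 26792 gene symbols in the count table, and all 8 passed the filter on low counts in both fractions. Translating ribosome affinity purification (TRAP) pulls down ribosomes that carry a tagged subunit. Here every mouse carried the Aldh1l1 eGFP-L10a transgene, in which the Aldh1l1 promoter drives a green fluorescent version of the ribosomal protein L10a, so the tag marks cells in which that promoter is active. Microdissected hypothalami gave a pull-down library and a supernatant library for each of 20 sample numbers, sequenced as tags from the 3′ ends of polyadenylated RNA. There were 7 sham-operated samples on chow, 6 sham-operated samples on a high-fat diet (HFD) and 7 samples on HFD after orchiectomy, the surgical removal of the testes (titled GDX-HFD). The feeding lasted 4 weeks. The labels name no glucocorticoid treatment in any group, and give neither the age and strain of the mice nor whether hypothalami were pooled. They also do not say that 1 number is 1 mouse, so p-values here measure the spread between these samples.

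Glucocorticoids such as corticosterone enter cells and bind the glucocorticoid receptor, a transcription factor that chaperones of the Hsp90 complex hold in the cytoplasm. The bound receptor moves to the nucleus and binds DNA as a pair at the glucocorticoid response element, near genes such as those studied here. In the brain astrocytes express the receptor strongly, and several of its targets restrain growth signals or the receptor itself.

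Library totals ran from 7714803 to 20792147 counts in the pull-downs and from 8739269 to 12931843 in the supernatants. The pull-downs were rich in astrocyte RNA: 10 astrocyte markers, Aldh1l1 and Gfap among them, summed to a median of 27950 CPM (counts scaled to a common library total) against 672 CPM in the supernatants. Transcripts of other cells remained in them. The summed CPM of 10 neuronal markers had a median of 333 in the pull-downs and 4709 in the supernatants, that of 10 oligodendrocyte markers 1019 and 10170, and that of 10 microglial markers 67.5 and 315. The summed CPM of 10 endothelial markers was higher in the pull-downs, with a median of 361 (range 211 to 1654) against 108 (range 91.5 to 145). So were the sums of 8 mural (76.0 against 38.9), 8 tanycyte and ependymal (233 against 57.05) and 6 oligodendrocyte precursor markers (416 against 236). Single markers of these lists went both ways: 5, 4 and 2 were higher and 2, 3 and 4 lower by edgeR's adjusted test. In 4 pull-downs over 10% of counts fell on Gm42418, a locus that overlaps ribosomal RNA sequence (sham HFD 1, orchiectomised 11 and 22, sham chow 8). In bulk RNA, fewer cells of a type and less RNA per cell cannot be told apart.

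Promoter windows were read for 7 of the 8 genes from RefSeq (GRCm38.p6, 250 bases before to 50 after each annotated start); Zbtb16 was not matched. They are shown for the genes in which letters of the glucocorticoid response element were found. That element was searched on both strands as the hexamer AGAACA, any 3 bases, and the hexamer TGTTCT. It occurred in 2 of 19102 windows of 15193 genes (0.0105%), of which 1 belongs to Sgk1 and 1 to Acnat2. A single hexamer, AGAACA or its reverse complement TGTTCT, is far more common and occurred in 14.6% of windows, those with the complete element included. Among the 7 genes, 3 windows of Sgk1 and 1 of Tsc22d3 held a hexamer. In the Sgk1 window printed (chr10:21993640-21993939, plus strand) the complete element begins 189 bases before the start and a further TGTTCT 242 bases before it. In the Tsc22d3 window (chrX:140600473-140600772, minus strand) a TGTTCT begins 185 bases before the start. Both are printed 5′ to 3′ with the hexamers in capitals, and a match describes the letters without showing binding in these cells.
Sgk1: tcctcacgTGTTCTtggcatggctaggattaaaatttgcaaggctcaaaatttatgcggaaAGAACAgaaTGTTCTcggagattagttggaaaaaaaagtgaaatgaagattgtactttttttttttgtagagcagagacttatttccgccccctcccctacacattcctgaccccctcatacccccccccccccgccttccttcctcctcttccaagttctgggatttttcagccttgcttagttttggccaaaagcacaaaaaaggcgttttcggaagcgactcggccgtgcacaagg
Tsc22d3: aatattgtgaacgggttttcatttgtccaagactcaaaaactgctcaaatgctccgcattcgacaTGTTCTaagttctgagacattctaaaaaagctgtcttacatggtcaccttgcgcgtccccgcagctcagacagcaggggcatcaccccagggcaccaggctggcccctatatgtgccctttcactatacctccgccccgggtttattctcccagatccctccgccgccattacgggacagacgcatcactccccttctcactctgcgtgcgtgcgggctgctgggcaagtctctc

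Of the 8 genes, 5 were higher and 2 lower in the pull-downs than in the supernatants, and 1, Errfi1, did not pass the test. Cdkn1a stood 8.24-fold higher in the pull-downs, Klf9 3.92-fold, Tsc22d3 3.88-fold, Ddit4 3.76-fold and Zbtb16 2.12-fold, whereas Sgk1 was 3.16-fold and Fkbp5 2.18-fold lower. The direction therefore differed within a set of genes that share an inducer. The comparison asks which transcripts the tagged ribosomes hold relative to the rest of the tissue. Differences were tested with edgeR's quasi-likelihood test over 40 libraries with Benjamini-Hochberg adjustment over 15629 genes. Most genes differed between the fractions: 86.8% of all genes passed, 43.1% higher and 43.7% lower in the pull-downs, so that 7 of 8 is near the background. The median log2 difference of the 8 genes was 1.497, against -0.01 over all genes tested. No alternative setting changed the call of any of the 8 genes.

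**Figure D1:**
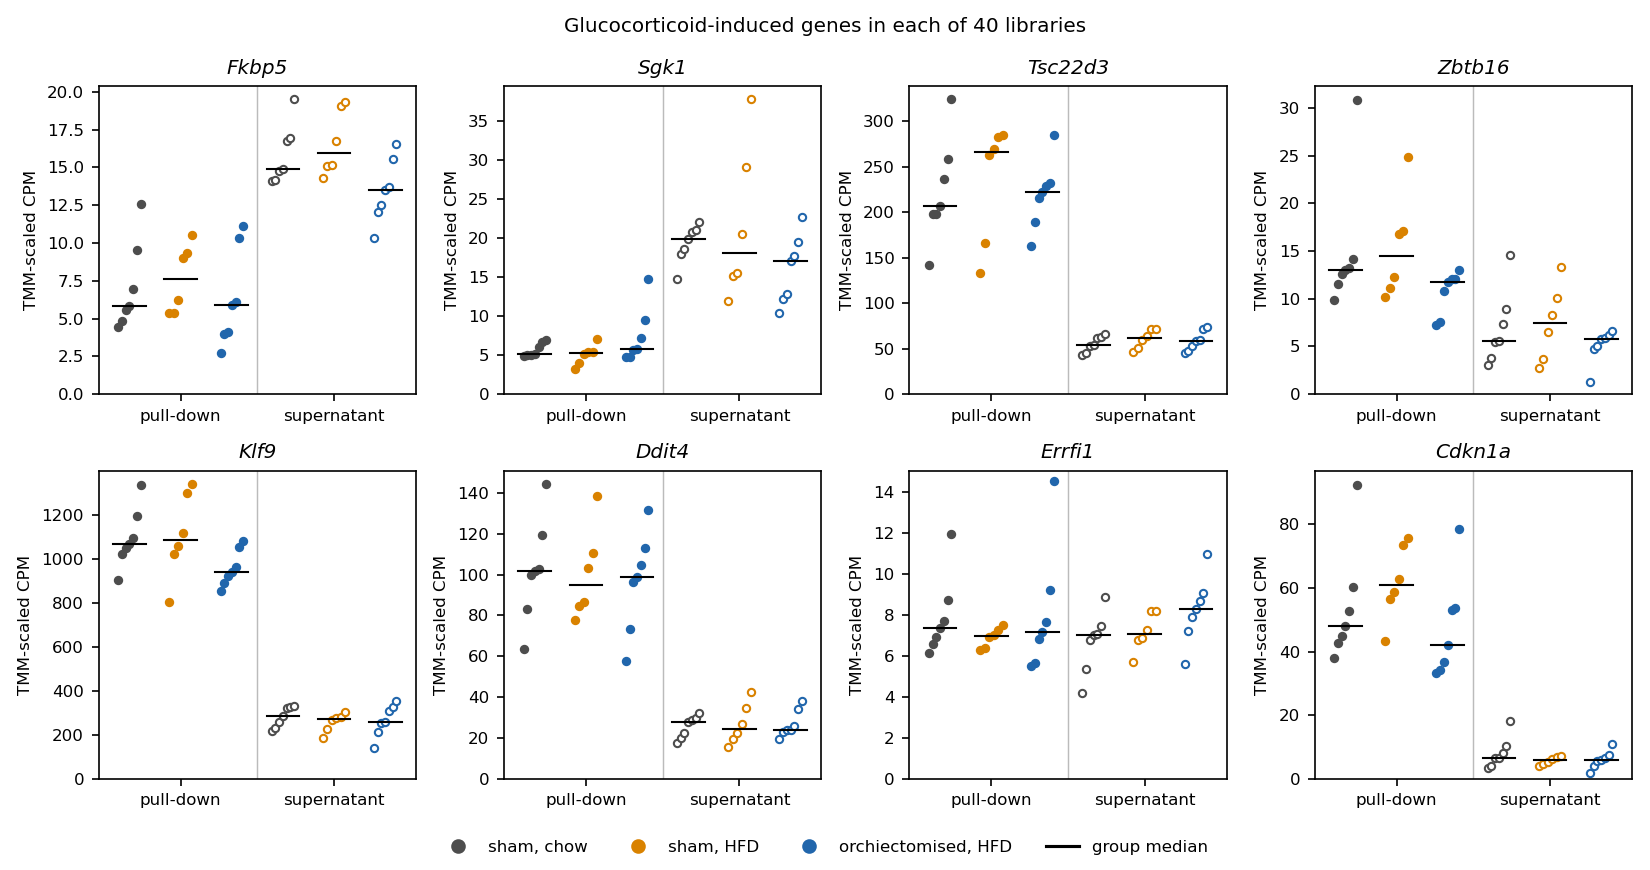
CPM of each gene, scaled by the trimmed mean of M values (TMM), in every library; filled points are pull-downs, open points supernatants, colours the 3 groups and lines the group medians. Tsc22d3, Klf9, Ddit4 and Cdkn1a have no overlap between fractions, and within a fraction the 3 groups of every gene overlap.

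Fkbp5 encodes FKBP51, a co-chaperone of the receptor complex that lowers the receptor's affinity for hormone and so closes a feedback loop. The gene lies on chr17:28399094-28517527 (minus strand, GRCm38). Its level in the pull-downs ran from 2.69 to 12.6 CPM with a median of 6.02, and in the supernatants from 10.3 to 19.5 CPM with a median of 15.0. All pull-downs but 3 lay below the lowest supernatant, so the fractions overlapped at their edge. On the log2 scale the difference was -1.12 ± 0.13 (SE; edgeR adjusted p = 3.38e-10). The pull-down was lower than the supernatant of the same number in 19 of 20 samples, and orchiectomised sample 22 was the exception, with a log2 ratio of 0.11. Fkbp5 also had the largest biological coefficient of variation of the 8 genes in the pull-downs. It was 0.372, at the 86.9th percentile of the genes tested there, but 0.146 in the supernatants, at the 17.5th percentile. Among pull-down genes within 0.5 of its mean level on the log2 scale it was at the 90.8th percentile. By that measure Cdkn1a (95.7th), Ddit4 (93.4th), Tsc22d3 (92.9th) and Zbtb16 (92.3rd) stood higher. The annotation places an antisense transcript and 3 other short loci inside Fkbp5, none of which the count table lists.

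Sgk1 encodes a serine/threonine kinase that holds ion channels at the membrane and phosphorylates the ubiquitin ligase Nedd4-2 and the N-Myc downstream regulated protein Ndrg1. It lies on chr10:21882184-21999903 (plus strand). It ran from 3.20 to 14.8 CPM in the pull-downs, with a median of 5.41, and from 10.3 to 37.7 CPM in the supernatants, with a median of 18.3. The highest pull-down, that of orchiectomised sample 22, reached into the supernatant range, and the other 19 lay below it. The log2 difference was -1.66 ± 0.14 (edgeR adjusted p = 1.53e-14), and the pull-down was the lower of the pair in 20 of 20 samples. Sgk1 is also known as a transcript of oligodendrocytes. Markers of oligodendrocytes, neurons and microglia were low in the pull-downs, as given above, and their part in the lower Sgk1 and Fkbp5 levels there was not tested.

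Among the 3 regulators of transcription, Tsc22d3 encodes GILZ, a leucine zipper protein that binds other transcription factors and carries part of the anti-inflammatory action of glucocorticoids (chrX:140539528-140600659, minus strand). It ran from 133 to 325 CPM in the pull-downs (median 226) and from 43.5 to 74.1 CPM in the supernatants (median 58.8). The fractions did not overlap, which holds for 37.3% of all genes, and the log2 difference was 1.96 ± 0.10 (edgeR adjusted p = 1.38e-21). Klf9 encodes a zinc finger repressor that responds to glucocorticoids and thyroid hormone (chr19:23141226-23168134, plus strand). It ran from 805 to 1340 CPM in the pull-downs (median 1051) and from 141 to 355 CPM in the supernatants (median 274), again without overlap. Its log2 difference was 1.97 ± 0.09 (edgeR adjusted p = 1.27e-23), and its variation in the pull-downs was the smallest of the 8 genes (coefficient 0.142, the median of all genes being 0.185). Among pull-down genes of like mean level the median was also 0.142. Zbtb16 encodes PLZF, a zinc finger repressor that glucocorticoids induce in many tissues (chr9:48654297-48836222, minus strand). It ran from 7.24 to 30.8 CPM in the pull-downs (median 12.2) and from 1.33 to 14.5 CPM in the supernatants (median 5.83). Here the fractions overlapped: 4 of 20 pull-downs lay above the highest supernatant, and 14 of 20 supernatants below the lowest pull-down. The pull-down was the higher of the pair in 20 of 20 samples. Its log2 difference was 1.08 ± 0.19 (edgeR adjusted p = 1.69e-06).

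The last 3 genes restrain growth. Ddit4 encodes REDD1, which inhibits the growth kinase mTORC1 through the Tsc1-Tsc2 complex (chr10:59949669-59951834, minus strand). It ran from 57.7 to 144 CPM in the pull-downs (median 101) and from 15.5 to 42.8 CPM in the supernatants (median 25.0), with no overlap and a log2 difference of 1.91 ± 0.12 (edgeR adjusted p = 2.45e-18). Errfi1 encodes MIG6, an inhibitor of the epidermal growth factor receptor (chr4:150853919-150868892, plus strand). It ran from 5.50 to 14.5 CPM in the pull-downs (median 7.09) and from 4.19 to 11.0 CPM in the supernatants (median 7.24). The 2 ranges nearly coincided, 9 of 20 samples had the higher value in the pull-down, and the log2 difference was 0.05 ± 0.10 (95% interval -0.16 to 0.26, edgeR adjusted p = 0.652). Its sign changed in 5 of 28 alternative settings. An antisense transcript overlaps the Errfi1 start in the annotation and is not listed in the count table.

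Cdkn1a encodes p21, an inhibitor of cyclin-dependent kinases that p53 and glucocorticoids both induce (chr17:29090976-29100727, plus strand). It ran from 33.2 to 92.3 CPM in the pull-downs (median 52.9) and from 1.77 to 18.2 CPM in the supernatants (median 6.39). The lowest pull-down lay above the highest supernatant. Its log2 difference of 3.04 ± 0.17 (edgeR adjusted p = 3.21e-19) was the largest of the 8, and it ran from 2.98 to 3.13 over the alternatives. A second table deposited by the authors, with values scaled per library, differs most on Cdkn1a: it lists the gene at 0 in 37 of 40 libraries, where the count table holds 14193 counts in all. Which table is right could not be settled, and a locus on the opposite strand overlaps the gene in the annotation. Every Cdkn1a value here comes from the count table. Of the other genes, Sgk1, Tsc22d3, Zbtb16, Ddit4 and Errfi1 matched the second table to within 0.01 counts in 40 of 40 libraries, Klf9 in 31 and Fkbp5 in 15, with a largest difference of 9.12 counts for Fkbp5.

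**Figure D2:**
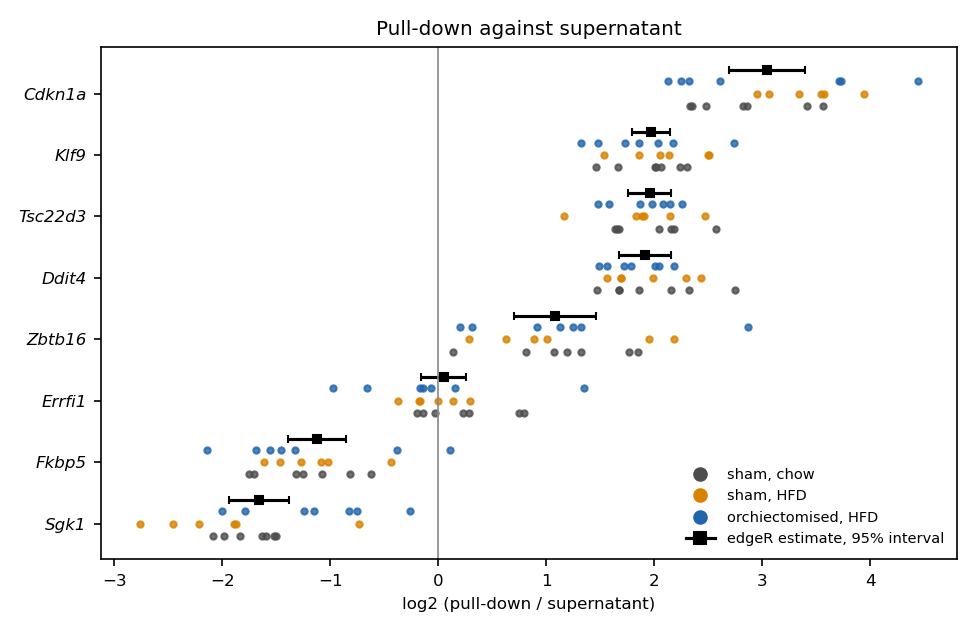
Log2 ratio of pull-down to supernatant CPM in each of the 20 samples (points, coloured by group) and the edgeR estimate with its 95% interval (black squares). Cdkn1a, Klf9, Tsc22d3, Ddit4 and Zbtb16 lie above 0 in all 20 samples, Sgk1 below 0 in all 20, and Errfi1 is spread around 0.

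Other genes that glucocorticoids are known to induce were read as a list of 24, of which 23 were tested between the fractions. In this list 17 were higher in the pull-downs, 2 lower, and 4 did not pass (edgeR), with a median log2 difference of 1.46. Over all genes tested 43.1% were higher and 43.7% lower. Fam107a, an actin-associated protein, was higher by 3.73 ± 0.11 on the log2 scale, the metallothionein Mt1 by 3.94 ± 0.16, the gap junction gene Gjb6 by 3.73 ± 0.17 and the lipase inhibitor Angptl4 by 3.62 ± 0.17. Gjb6 is also an astrocyte marker. The pair that was lower consisted of Rasd1, at -1.54 ± 0.24, and Map3k6, at -1.22 ± 0.22. The receptor itself, Nr3c1, was higher in the pull-downs by 1.62 ± 0.09, as was Hsd11b1, which regenerates active corticosterone, by 4.47 ± 0.24. The chaperone Hsp90aa1 was lower, at -1.51 ± 0.05, and the coactivator Ncoa1 higher, at 1.06 ± 0.06. Of the 15 receptor, chaperone and hormone supply genes tested, 9 were higher and 6 lower, beside the same shares of all genes.

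Relatives of the 8 genes split in the same comparison: of 16, 8 were higher, 7 lower, and 1 did not pass. This is near the 43.1% higher and 43.7% lower among all genes. The kinases related to Sgk1 went opposite ways, Sgk2 at -4.12 ± 0.28 and Sgk3 at 1.96 ± 0.07. The relative of Ddit4, Ddit4l, was higher by 3.44 ± 0.09, that of Tsc22d3, Tsc22d4, by 3.01 ± 0.10, and that of Zbtb16, Zbtb20, by 2.41 ± 0.07. Of 16 partners and substrates of the encoded proteins, 8 were higher, 6 lower, and 2 did not pass. The receptor that the Errfi1 product inhibits, Egfr, was higher by 4.69 ± 0.17 and its relative Erbb2 by 3.56 ± 0.18. The Sgk1 substrate Nedd4l was lower, at -1.18 ± 0.05, and the transcription factor Foxo1 higher, at 1.98 ± 0.06. Because Cdkn1a answers to p53 and Ddit4 to the stress factor ATF4 as well, lists of their other targets were read too. Of 11 p53 targets 8 were higher and 3 lower, and of 10 ATF4 targets 6 were higher and 4 lower (edgeR). Of 16 immediate early genes, which neuronal activity induces, 6 were higher, 9 lower, and 1 did not pass. Each of these counts is to be read beside the 43.1% and 43.7% of all genes.

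None of the 8 genes passed the test in any comparison between the groups. The study set HFD against chow in sham-operated mice, orchiectomy against sham on HFD, and both together against sham on chow, within each fraction. The counts were 0 of 8 in all 6 comparisons, by edgeR and equally by DESeq2 and limma voom. Passing genes were as scarce among all genes: of 14059 genes tested in the pull-downs 0% passed for diet, 0% for orchiectomy and 0.0142% for both, and of 14628 in the supernatants 0%, 0% and 0%. At an unadjusted p under 0.05 the counts in the pull-downs were 0 of 8 for diet, 1 for orchiectomy and 0 for both, beside 1.71%, 6.53% and 11.1% of all genes, and in the supernatants 0, 1 and 1, beside 1.41%, 3% and 2.26%. For none of the 8 genes were the 2 groups of a comparison free of overlap, beside 0.0356%, 0.142% and 0.263% of all genes in the pull-downs and 0.041%, 0.0957% and 0.0137% in the supernatants. The comparisons share control samples: sham chow serves the diet and the combined comparison, sham HFD the diet and the orchiectomy comparison.

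For diet no difference was detected in any of the 8 genes, with intervals that differ in width. In the pull-downs the log2 difference for HFD was 0.00 for Klf9 (95% interval -0.22 to 0.23), 0.05 for Tsc22d3 (-0.34 to 0.44) and -0.04 for Ddit4 (-0.42 to 0.34). It was 0.09 for Fkbp5 (-0.53 to 0.72), 0.02 for Zbtb16 (-0.49 to 0.53) and -0.19 for Sgk1 (-0.67 to 0.30), wider intervals that leave room for larger differences. The largest was that of Errfi1, at -0.21 (-0.61 to 0.19), and that of Cdkn1a was 0.18 (-0.26 to 0.62). The median difference of the 8 genes was 0.01 in the pull-downs and 0.08 in the supernatants. In the supernatants the largest was that of Cdkn1a, at -0.53 (-1.27 to 0.22), which was -0.20 without sample 12.

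Sgk1 in the pull-downs after orchiectomy had a median of 5.74 CPM (range 4.74 to 14.8), against 5.28 CPM in sham HFD (range 3.20 to 7.06) and 5.09 CPM in sham chow (range 4.87 to 6.92). The groups overlapped, and 3 of the 7 orchiectomised pull-downs, samples 22, 6 and 11, lay above every sham HFD one. The log2 difference to sham HFD was 0.58 ± 0.24 (interval 0.09 to 1.06, unadjusted p = 0.0226, edgeR adjusted p = 0.741). Without sample 22 it was 0.33. In the supernatants the medians ran in the reverse order. They were 17.0 CPM after orchiectomy (range 10.3 to 22.7), 18.0 CPM in sham HFD (range 11.9 to 37.7) and 19.9 CPM in sham chow (range 14.7 to 22.1). The log2 difference to sham HFD was -0.43 ± 0.23 (edgeR adjusted p = 0.945), and -0.19 without sample 16, the highest sham HFD supernatant. By the mean, sham chow lay between the other groups in both fractions.

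Markers of blood vessels and of neurons were higher in the pull-downs with the most Sgk1. The 10 endothelial markers summed to a median of 444 CPM in the orchiectomised pull-downs (range 319 to 1654), 297 in sham HFD (range 236 to 1023) and 278 in sham chow (range 211 to 812), and none was at 0. All 10 were above 0 in the orchiectomy difference, with a median of 0.76, and none passed the adjusted test. The summed markers fell into separate clusters, 15 pull-downs at up to 444 CPM and 5 from 812 CPM upward. Those 5 were orchiectomised 6, 11 and 22, sham HFD 1 and sham chow 8, of which all but sample 6 are the pull-downs rich in Gm42418. Sgk1 ran from 6.92 to 14.8 CPM in these 5 and from 3.20 to 6.69 CPM in the other 15, without overlap. The split was not particular to endothelial markers. Those 5 also had the highest neuronal sums, 419 to 696 CPM against at most 406 CPM in the other 15. Their mural sums were the highest too, 103 to 266 CPM against at most 102.6 CPM. The supernatants of the same 5 numbers had the highest astrocyte sums, 1543 to 1902 CPM against at most 1195 CPM. Within the 15, Sgk1 showed no relation with the endothelial sum that passed a test, at r = -0.122 (two-sided permutation p = 0.675, adjusted p = 0.675 over the 8 genes) and rho = 0.107. Klf9 ran from 805 to 1079 CPM in the 5 and from 922 to 1340 CPM in the 15, with overlap, and within the 15 had r = -0.348 (permutation adjusted p = 0.27) and rho = -0.507 (permutation adjusted p = 0.0888). Among those 15 pull-downs 4 other genes fell with the endothelial sum. Fkbp5 had r = -0.645 (permutation adjusted p = 0.0298) and rho = -0.682, Tsc22d3 r = -0.654 (permutation adjusted p = 0.0298) and rho = -0.70, Zbtb16 r = -0.658 (permutation adjusted p = 0.0298) and rho = -0.714, and Cdkn1a r = -0.612 (permutation adjusted p = 0.0327) and rho = -0.657. Without samples 2 and 12, which lie farthest out on the endothelial sum, these values were -0.527, -0.484, -0.519 and -0.435. Over all 20 pull-downs 6 relations of genes with marker sums passed by Pearson's r, and none by Spearman's rho. The 6 were those of Sgk1 (positive) and Klf9 (negative) with the clustered endothelial sum and 4 others. Sgk1 rose with the neuronal sum (r = 0.688, permutation adjusted p = 0.0218 over 48 relations of 8 genes and 6 marker lists), the microglial sum (r = 0.686, permutation adjusted p = 0.0403) and the mural sum (r = 0.668, permutation adjusted p = 0.0390). Without samples 1 and 22 these were 0.493, 0.279 and 0.465. With all samples rho was 0.629, 0.383 and 0.523 (permutation adjusted p = 0.0518, 0.2552 and 0.1355), short of the threshold. The neuronal and mural values span the 5 pull-downs that were highest on both sums. No r within the other 15 was computed for them, so a split and a graded relation cannot be told apart. Errfi1 rose with the microglial sum in the pull-downs, at r = 0.658 (permutation adjusted p = 0.0446) and 0.374 without samples 1 and 22. Its rho was 0.463 (permutation adjusted p = 0.169). In the supernatants the only relation of 48 that passed was that of Cdkn1a with the microglial sum, at r = -0.681 (permutation adjusted p = 0.0283) and -0.602 without samples 8 and 14. These relations were computed after the values had been seen, and the part of the markers in the Sgk1 difference was not tested.

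Fkbp5 in the supernatants after orchiectomy had a median of 13.5 CPM (range 10.3 to 16.5), against 15.95 CPM in sham HFD (range 14.3 to 19.3) and 14.9 CPM in sham chow (range 14.1 to 19.5). The groups overlapped, but 5 of the 7 orchiectomised supernatants lay below every sham one. The log2 difference was -0.30 ± 0.12 to sham HFD (unadjusted p = 0.0187, edgeR adjusted p = 0.945) and -0.25 ± 0.12 to sham chow (unadjusted p = 0.0409, edgeR adjusted p = 1). Across the 20 supernatants the Fkbp5 level fell with the library total, with r = -0.644 (two-sided permutation p = 0.00222, adjusted p = 0.0178 over 24 relations), rho = -0.758 and r = -0.594 without samples 2 and 6. The median total was 11027506 counts in the orchiectomised supernatants, 9840126 in sham HFD and 9699469 in sham chow, and its part in the Fkbp5 difference was not tested. Astrocyte markers were higher in the same libraries: the 10 summed to a median of 1003 CPM in the orchiectomised supernatants, 654 CPM in sham HFD and 565 CPM in sham chow. The highest sums were those of samples 1, 6, 8, 11 and 22, whose pull-downs had the highest endothelial sums. All 10 astrocyte markers were above 0 in the orchiectomy difference, with a median of 0.37, and none passed the adjusted test. Fkbp5 had r = -0.549 with that sum (permutation p = 0.0117, adjusted p = 0.14 over 48 relations), rho = -0.471 and r = -0.461 without samples 8 and 22, and the part of these markers was not tested either. In the pull-downs Fkbp5 had medians of 5.92, 7.59 and 5.84 CPM in the same order of groups, with ranges of 2.69 to 11.1, 5.34 to 10.53 and 4.45 to 12.6 CPM.

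Zbtb16 in the pull-downs after orchiectomy had a median of 11.8 CPM (range 7.24 to 13.0), against 14.5 CPM in sham HFD (range 10.2 to 24.8) and 13.1 CPM in sham chow (range 9.85 to 30.8). All 7 orchiectomised pull-downs lay below the median of each sham group, and the ranges overlapped. The log2 difference was -0.51 ± 0.25 to sham HFD (unadjusted p = 0.0501, edgeR adjusted p = 0.741) and -0.49 ± 0.24 to sham chow (unadjusted p = 0.0518, edgeR adjusted p = 0.448). Single samples carried much of both: without sample 18 the first was -0.32, and without sample 12 the second was -0.20. In the supernatants the medians were 5.81, 7.40 and 5.59 CPM in the same order of groups, and the difference to sham HFD was -0.55 ± 0.39 (edgeR adjusted p = 0.945), or -0.31 without sample 18.

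Cdkn1a and Klf9 in the pull-downs also lay lower after orchiectomy without passing the test. For Cdkn1a the medians were 42.2 CPM after orchiectomy, 60.8 CPM in sham HFD and 48.1 CPM in sham chow, and the log2 difference to sham HFD was -0.37 ± 0.21 (interval -0.81 to 0.07, edgeR adjusted p = 0.741). For Klf9 they were 939, 1087 and 1066 CPM, and the difference was -0.20 ± 0.11 (interval -0.42 to 0.03, edgeR adjusted p = 0.741). All 7 orchiectomised Klf9 pull-downs lay below the sham HFD median. The 10 endothelial markers, all above 0 in this comparison with a median of 0.76, moved opposite to Klf9, and their part in its difference was not tested. The other 3 genes went in both directions: Tsc22d3 had medians of 223, 266 and 207 CPM, Ddit4 of 99.1, 94.8 and 102 CPM, and Errfi1 of 7.15, 6.96 and 7.38 CPM. Their log2 differences to sham HFD were -0.08 ± 0.19, -0.04 ± 0.18 and 0.24 ± 0.19, and the last of these, for Errfi1, was 0.04 without sample 22. Over the 8 genes the median orchiectomy difference in the pull-downs was -0.14, with 6 below 0 and 2 above, against 0.01 over all genes tested.

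**Figure D3:**
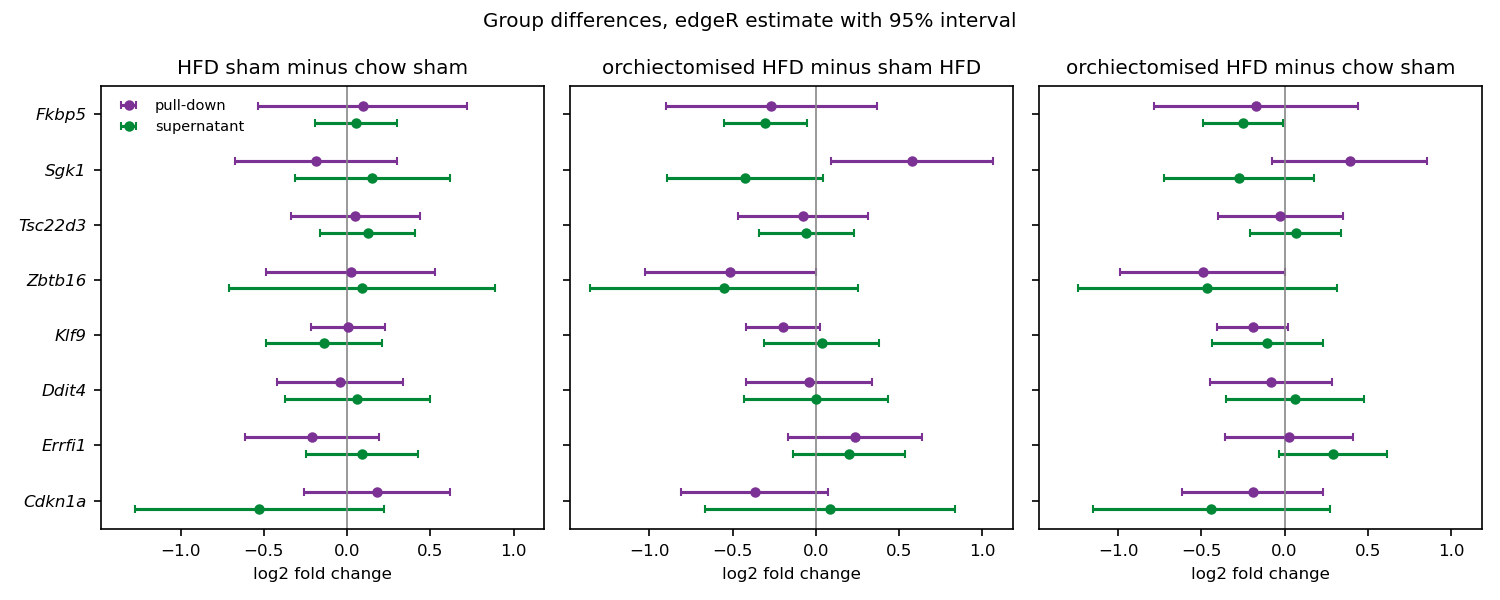
Log2 fold change of each gene for the 3 comparisons between groups, with 95% intervals, in the pull-downs (purple) and supernatants (green). Sgk1 after orchiectomy is the only pull-down value whose interval excludes 0 (0.09 to 1.06), and no value passed the adjusted test.

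The list of other glucocorticoid-induced genes likewise had 0 members past the adjusted test in any of these comparisons (edgeR). In the pull-downs after orchiectomy 8 of 22 had an unadjusted p under 0.05, beside 6.53% of all genes, 6 of them lower and 2 higher, with a list median of -0.12. The sulfotransferase Sult1a1 had the smallest p, at -1.34 ± 0.28 (unadjusted p = 0.000123, edgeR adjusted p = 0.246), followed by the lipid droplet gene Plin4 at -0.78 ± 0.27, Mt1 at -0.35 ± 0.13 and Angptl4 at -0.58 ± 0.22. In the supernatants Plin4 had the smallest p, at -1.60 ± 0.35 (unadjusted p = 0.000171, edgeR adjusted p = 0.627). Of the receptor genes in the pull-downs, the mineralocorticoid receptor Nr3c2, which also binds corticosterone, had a difference of 0.55 ± 0.15 (unadjusted p = 0.00142, edgeR adjusted p = 0.722) and Nr3c1 one of 0.20 ± 0.08 (edgeR adjusted p = 0.741).

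Whether the fractions responded differently was tested as an interaction, and 0 of 8 genes passed for diet, orchiectomy or both (edgeR, also DESeq2 and limma voom). Among all 15629 genes 0%, 0.0064% and 0.0128% passed. At an unadjusted p under 0.05 the counts were 0, 1 and 1 of 8, beside 2.55%, 4.43% and 6.66% of all genes, and both were Sgk1. Its orchiectomy difference was larger in the pull-downs than in the supernatants by 0.99 ± 0.33 on the log2 scale (interval 0.31 to 1.66, unadjusted p = 0.00537, edgeR adjusted p = 0.941), with a range of 0.78 to 1.22 when single samples were left out. For the combined contrast it was 0.65 ± 0.32 (unadjusted p = 0.0496, edgeR adjusted p = 0.737), and 0.43 without sample 22. In the orchiectomy interaction all 10 endothelial markers were above 0 with a median of 0.95, 4 of them at an unadjusted p under 0.05, and all 10 astrocyte markers were below 0 with a median of -0.45, none of which passed the adjusted test. Samples 1, 6, 8, 11 and 22 had the highest endothelial sums in the pull-downs and the highest astrocyte sums in the supernatants. Of these, samples 6, 11 and 22 were orchiectomised. The part of these markers in the Sgk1 values was not tested. The log2 ratio of pull-down to supernatant for Sgk1 had a median of -1.15 after orchiectomy (range -1.998 to -0.26), -2.05 in sham HFD (range -2.76 to -0.74) and -1.63 in sham chow (range -2.08 to -1.50), with overlap between all groups.

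Within a fraction the 8 genes were compared pair by pair over the 20 libraries, 28 pairs in each. Zbtb16 and Cdkn1a moved together in both fractions. In the pull-downs their log2 CPM values correlated at r = 0.814 (two-sided permutation p = 1e-05, the smallest that 100000 permutations can give, adjusted p = 0.00028) and rho = 0.744 (permutation adjusted p = 0.0084), and in the supernatants at r = 0.83 (permutation p = 1e-05, adjusted p = 0.00028) and rho = 0.755 (permutation adjusted p = 0.00308). Sham chow sample 12 was highest for both genes in both fractions, with 30.8 and 92.3 CPM in the pull-down and 14.5 and 18.2 CPM in the supernatant. Without the 2 samples farthest out for Zbtb16, r was 0.717 in the pull-downs (without 12 and 18) and 0.645 in the supernatants (without 2 and 12). With values centred on their group means it was 0.794 and 0.855. As stated above, Cdkn1a rests on the count table alone.

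By Pearson's r no other pair passed in the pull-downs, where 20 of 28 correlations were above 0 with a median r of 0.301 (0.002 over all pairs of genes). By Spearman's rho 3 pairs passed there, Zbtb16 with Cdkn1a, Zbtb16 with Klf9 (rho = 0.642, permutation adjusted p = 0.0407; r = 0.498, permutation adjusted p = 0.0869) and Tsc22d3 with Zbtb16 (rho = 0.612, permutation adjusted p = 0.0467; r = 0.611, permutation adjusted p = 0.0566). The last of these passed by r with group-centred values, at r = 0.671 (permutation adjusted p = 0.0151). In the supernatants 6 pairs passed by Pearson's r, 5 positive and 1 negative, while only 13 of 28 were above 0 and the median r was -0.04. Tsc22d3 and Ddit4 correlated at r = 0.834 (permutation adjusted p = 0.00028), rho = 0.85, and r = 0.797 without samples 8 and 10. Zbtb16 and Klf9 correlated at r = 0.70 (permutation adjusted p = 0.00831), rho = 0.552 (permutation adjusted p = 0.0615), and r = 0.611 without samples 2 and 12. Sgk1 and Ddit4 did so at r = 0.626 (permutation adjusted p = 0.0161), rho = 0.617, and r = 0.547 without samples 2 and 16. Klf9 and Errfi1 were opposed, at r = -0.647 (permutation adjusted p = 0.0161), rho = -0.657, and r = -0.501 without samples 2 and 16. Klf9 and Cdkn1a, at r = 0.637 (permutation adjusted p = 0.0167) and rho = 0.471 (permutation adjusted p = 0.13), had r = 0.328 without samples 2 and 16, so that this relation rests on those samples. With library totals alone that pair no longer passed, at r = 0.531 (permutation adjusted p = 0.091). Tsc22d3 and Cdkn1a passed by rho alone, at -0.657 (permutation adjusted p = 0.0151), with r = -0.492 (permutation adjusted p = 0.102). The difference between the fractions in these correlations was not tested.

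**Figure D4:**
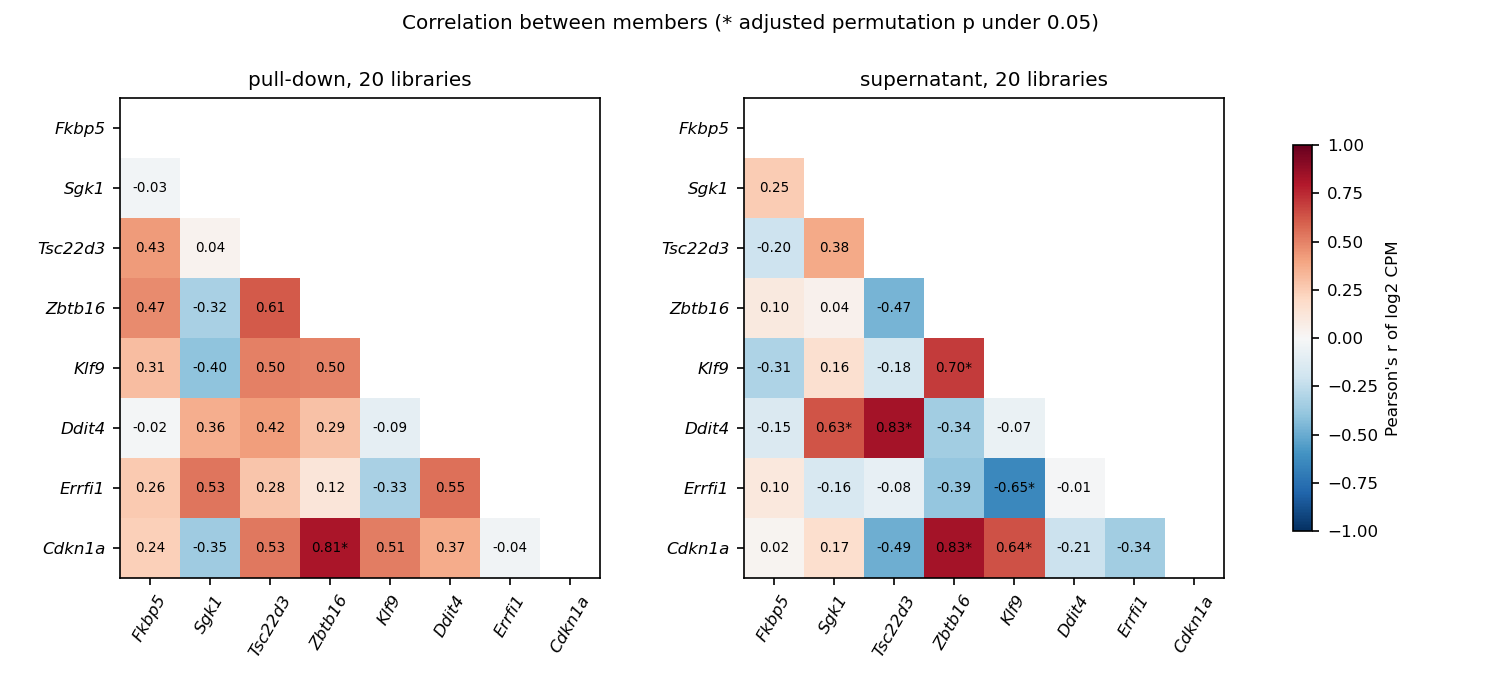
Pearson's r between the log2 CPM of each pair of genes over 20 pull-downs (left) and 20 supernatants (right); asterisks mark permutation p-values under 0.05 after adjustment over the 28 pairs of a fraction. Zbtb16 and Cdkn1a carry an asterisk in both panels (0.81 and 0.83).

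Several of these genes followed properties of the library, which were read for the library total, the Gm42418 share and the mitochondrial share (24 relations in each fraction). In the supernatants Cdkn1a rose with the Gm42418 share, at r = 0.706 (permutation adjusted p = 0.00888), rho = 0.839 and r = 0.872 without samples 9 and 10. Zbtb16 did so at r = 0.626 (permutation adjusted p = 0.0197), rho = 0.662 and r = 0.749 without those samples, and Tsc22d3 fell, at r = -0.682 (permutation adjusted p = 0.00936), rho = -0.648 and r = -0.579. The part of this share in the supernatant correlation of Zbtb16 with Cdkn1a was not tested. By rho alone, supernatant Tsc22d3 fell and Cdkn1a rose with the mitochondrial share, at rho = -0.592 and 0.585 (permutation adjusted p = 0.0313 and 0.0323). Their r was -0.508 and 0.379 (permutation adjusted p = 0.0892 and 0.2985), and -0.649 and 0.706 without samples 2 and 12. In the pull-downs Klf9 rose with the library total, at r = 0.618 (permutation adjusted p = 0.0278), rho = 0.63 and r = 0.492 without samples 20 and 22, and fell with the Gm42418 share, at r = -0.613 (permutation adjusted p = 0.0278), rho = -0.474 and r = -0.381 without samples 1 and 11. Sgk1 rose with that share, at r = 0.588 (permutation adjusted p = 0.0343), rho = 0.414 and r = 0.637. For the mitochondrial share the relations of Sgk1 (r = 0.736, rho = 0.331) and Errfi1 (r = 0.688, rho = 0.352), with permutation adjusted p of 0.0278 and 0.0292 for r, became 0.415 and 0.492 without samples 1 and 22. None of the 24 pull-down relations passed by rho, the lowest permutation adjusted p being 0.0782. The Zbtb16 and Cdkn1a pair in the pull-downs kept r = 0.796 without the 4 pull-downs rich in Gm42418.

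**Figure D5:**
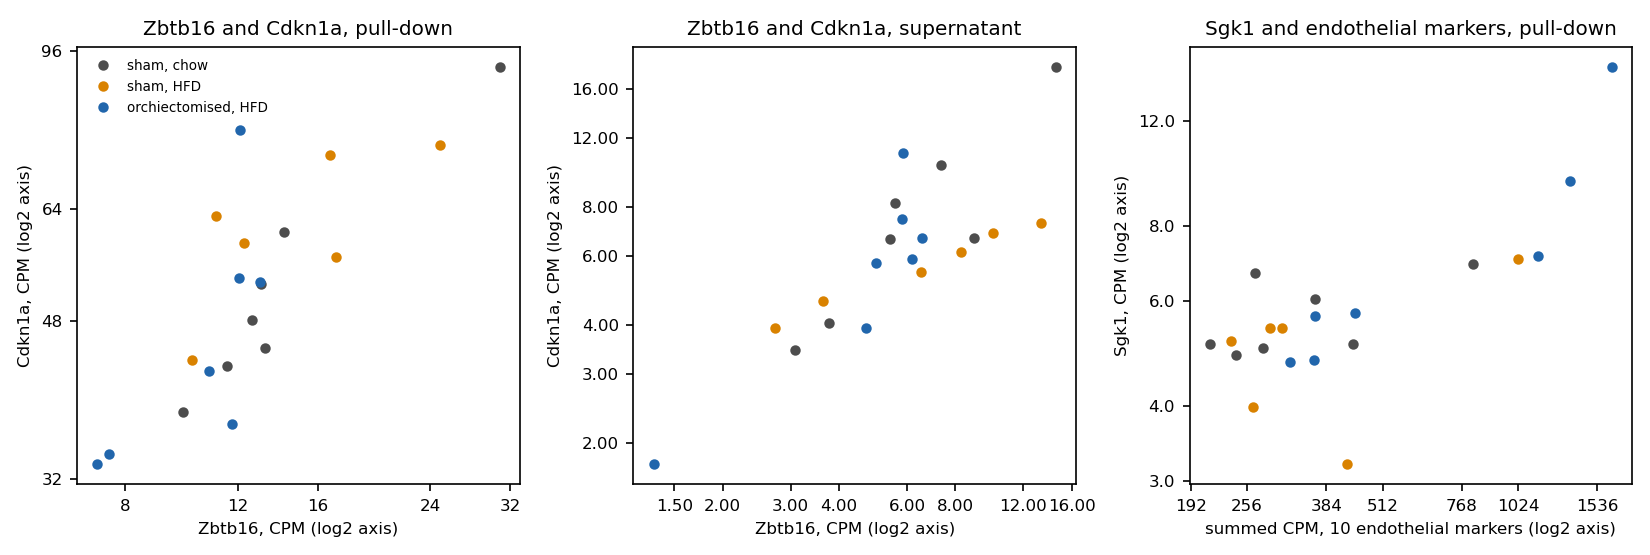
Zbtb16 against Cdkn1a in the pull-downs (left) and supernatants (middle), and the summed CPM of 10 endothelial markers against Sgk1 in the pull-downs (right), 1 point per library, all axes logarithmic. The left and middle panels show r = 0.814 and 0.83. In the right panel the 5 pull-downs from 812 CPM of endothelial markers upward all lie above the other 15 for Sgk1. These 5 were also the highest for neuronal and mural markers.

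Levels in the pull-down and in the supernatant of the same number showed no correlation that passed the test over all 20 samples. Ddit4 had the highest correlation between them, at r = 0.545 (two-sided permutation p = 0.0131, adjusted p = 0.105 over the 8 genes), rho = 0.504 and r = 0.458 without samples 7 and 10, and 0 of 8 genes passed. Over 13242 genes the median r was 0.013, and 98.5% had a lower r than Ddit4. This share was 95.2% for Zbtb16, 92.7% for Tsc22d3, 90.7% for Cdkn1a and 86.8% for Fkbp5. It was 54.4% for Klf9, 48.7% for Sgk1 and 10.9% for Errfi1. Without the 4 samples whose pull-down is rich in Gm42418 the Ddit4 value was 0.677 (permutation adjusted p = 0.0299). Zbtb16 had r = 0.431 (permutation adjusted p = 0.24), and -0.027 without samples 12 and 18. For Sgk1 and Klf9 r was 0.005 and 0.043, and without the 4 Gm42418-rich samples 0.223 and 0.465. Fkbp5 had r = 0.521 there (permutation adjusted p = 0.103), and only Ddit4 passed.

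Samples differed in how many of the 8 genes were among the highest or lowest. Sham chow 12 was among the 5 highest pull-downs for 6 of the 8 genes and among the 5 lowest for none. Orchiectomised 22 was among the 5 highest for 5, with 14.8 CPM of Sgk1 and 14.5 CPM of Errfi1, and among the 5 lowest for 2. Orchiectomised 10 was among the 5 lowest pull-downs for 6 genes, and sham chow 7 and orchiectomised 2 for 5 each. In the supernatants orchiectomised 2 was among the 5 lowest for 5. Across the 20 pull-downs, of 9882 genes with a mean of at least 5 CPM, those most like 7 of the 8 genes were Ankrd9 for Fkbp5 (r = 0.755), Tacc2 for Sgk1 (0.87), Cdr2l for Tsc22d3 (0.708), Smim3 for Zbtb16 (0.853), Amigo2 for Klf9 (0.821), Fam118a for Errfi1 (0.834) and Zbtb16 for Cdkn1a (0.814). These are the highest of many values and carry no p.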

How the data were processed

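Per the labels, polyadenylated RNA from pull-downs and supernatants was made into libraries with QuantSeq 3′ mRNA-Seq kits, and per the submitters' processing notes Trim Galore 0.6.4, Salmon 1.9.0 and the GRCm38 build were used. Strand setting, annotation and gene-level summing: not given in the sources used here. Estimated counts per gene symbol for 40 libraries were deposited by the authors, with a second table whose values behave as a signal scaled per library; only the deposited signal of the 8 genes was set against the counts, after undoing the scaling.

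Counts were rounded to whole numbers. Genes were filtered with filterByExpr (minimum count 10), scaled by TMM and fitted in R 4.3.3 by edgeR 4.0.16 (glmQLFit, glmQLFTest). Adjustment was by Benjamini-Hochberg over every gene of a fit, at a threshold of 0.05. The fractions and interactions were fitted on 40 libraries, the groups on the 20 of a fraction, without a block for the sample number. DESeq2 1.42.0, limma 3.58.1 (voom), other scalings, no filter, leaving out single samples or the 4 pull-downs with over 10% Gm42418, and a block were alternatives. Recovery of known changes was tested on simulated data. CPM values are TMM-scaled, on the log2 scale with a prior count of 2. Correlations were tested with 100000 permutations, two-sided. The 8 genes were named in every comparison, up to 4 genes with the smallest p of each other list, and the gene most alike to each (that of Ddit4 is not reported here); Rasd1, Map3k6 and Sgk2 were chosen after their values were seen, as were the marker relations. The genes, lists and tests were chosen with earlier results of these data known. Positions are from GENCODE M21, promoters from RefSeq (GRCm38.p6).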

Additional observations from a re-analysis of the deposited data

Results flagged for a closer look

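In 48 checks of 8 genes in 6 groups, 4 values, from 3 libraries, stood apart from their group by Dixon's criterion, and chance alone gives about 1 in 20. Sham chow sample 12 was the highest pull-down of its group for Zbtb16, with 30.8 CPM against 14.2 CPM for the next, and for Cdkn1a, with 92.3 CPM against 60.3 CPM. Orchiectomised sample 22 was the highest pull-down of its group for Errfi1, with 14.5 CPM against 9.23 CPM. Orchiectomised sample 2 was the lowest supernatant of its group for Zbtb16, with 1.33 CPM against 4.71 CPM.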

How the results depend on the processing

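The calls on the 8 genes were the same under every alternative run: 7 between the fractions and 0 in each group comparison and interaction. Counts over all genes were small and moved. For orchiectomy in the pull-downs (0 genes) DESeq2 called 11, scaling by library totals 1, the fit without Gm42418-rich pull-downs 4, and leaving out single samples 0 to 5. For both in the pull-downs (2 genes) DESeq2 called 12, voom 1 and the fits without single samples 2 to 4. In the supernatants DESeq2 called 3 for orchiectomy and 1 for both, and leaving out single samples gave 0 to 2 for both. For the interactions DESeq2 called 4 for diet (0), 6 for orchiectomy (1) and 7 for both (2), and voom 0 for orchiectomy and 1 for both. The orchiectomy interaction had 2 genes without Gm42418-rich pull-downs and 0 to 2 without single samples. With the sample number as a block it had 0 genes, and no call on the 8 genes changed. For a check of the numbering, log2 CPM values were centred on each gene's group mean. So centred, same-numbered libraries correlated over genes at -0.069 to 0.153, with 5 of 20 pairs over 0.1. The median was 0.033, against -0.002 for differently numbered libraries of the same group. Of the 20 pull-downs, 6 correlated best with their own number among all 20 supernatants, more than random matching would give. The numbers also matched in marker sums. Samples 1, 6, 8, 11 and 22 had the highest endothelial sums in the pull-downs and the highest astrocyte sums in the supernatants. Whether same-numbered libraries come from the same mouse was not tested. The main fits used no pairing because the labels do not say that 1 number is 1 mouse. The 1 passing pair of genes in the pull-downs became 2 with group-centred values, 2 with library totals and 4 without Gm42418-rich samples, which also gave 1 passing gene between fractions. The causes were not tested. Counts of Fkbp5, Sgk1, Zbtb16 and Errfi1 per library were low in the pull-downs (26 at the lowest, for Fkbp5), which limits their precision.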

Other observations

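Immediate early genes, which activity and stress induce within minutes, lay above their sham chow level in the orchiectomised HFD pull-downs for 13 of 13 genes tested, with a median log2 difference of 0.41, and none passed the adjusted test (edgeR). Nr4a1 had the smallest p, at 0.86 ± 0.24 (unadjusted p = 0.00165, edgeR adjusted p = 0.369), and 4 of the 13 had an unadjusted p under 0.05, where 11.1% of all genes did. The 10 endothelial markers were above 0 in the same comparison, 8 of them at an unadjusted p under 0.05, with a median of 1.08, and their part in these values was not tested.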
